A study of Mus musculus with 6 samples.

Results

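The cell fusion genes of osteoclast precursors described here are 9 genes whose products sit at the cell surface or in membranes and have been linked to the merging of macrophages. They are Dcstamp, Ocstamp, Atp6v0d2, Cd9, Cd81, Cd44, Cd47, Sirpa and Cdh1. All 9 were found by symbol among the 24940 genes of the deposited table, and 8 of them passed the filter on low values that left 11595 genes for testing. The exception was Cdh1, which lay below it. Bone marrow-derived macrophages (BMMs), grown from mouse marrow with M-CSF, served as osteoclast precursors. They were kept in M-CSF at 30 ng/mL for 3 days without RANKL (-R), with RANKL at 100 ng/mL (+R), or with the same RANKL and a methanol extract of Abeliophyllum distichum leaves (LE) at 10 μg/mL (R+LE). RNA from 2 libraries of each condition was sequenced, so all groups share M-CSF and no group received LE without RANKL. The sample labels name C57BL/6 mice aged 6 to 8 weeks, while the methods of the study name male mice of the ICR strain. Neither says whether the 2 libraries of a condition came from separate cultures or animals, so p-values measure the spread between these libraries, which may be technical.

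A mature osteoclast is a giant cell with many nuclei that forms when mononuclear precursors meet, adhere and fuse. The process is thought to need multi-pass membrane proteins that are made when RANKL acts (DC-STAMP and OC-STAMP), a subunit of the vacuolar proton pump (the d2 subunit, encoded by Atp6v0d2), tetraspanins that organise the membrane at the contact, and adhesion or recognition proteins that bring cells together. In macrophages the tetraspanins CD9 and CD81 have been described as restraining fusion, whereas CD44, CD47, its receptor SIRPα and E-cadherin have been tied to the approach and recognition of partner cells.

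The unit of every level below is RPKM, reads per kilobase of transcript scaled to the mapped reads of the library, which allows levels of different genes to be set side by side. Between 29390227 and 34846381 reads were mapped per library, and 74.2% to 80.7% of them lay on genes. Replicate 2 had the smaller share in +R (76.3% against 80.7%) and in R+LE (74.2% against 80.5%). All 7 osteoclast markers on the list used for checking (Acp5, Ctsk, Calcr, Oscar, Mmp9, Car2, Itgb3) were called higher in +R than in -R, next to 6.58% of all tested genes. Ctsk, Calcr, Oscar, Car2 and Itgb3 lay below 0.5 RPKM in -R and passed the filter only through the RANKL conditions. Their calls upwards are thus in part built in. The summed level of the 7 markers ranged from 37.7 to 38.7 RPKM in -R, from 1721 to 1951 RPKM in +R and from 298 to 340.3 RPKM in R+LE. The 7 macrophage markers were present in every library, with a summed level of 6458 to 7073 RPKM in -R, 2607 to 3351 RPKM in +R and 3632 to 4046 RPKM in R+LE. Of 7 epithelial markers none passed the filter, and together they held between 1 and 15 reads per library. In bulk RNA, fewer cells of a type and less RNA per cell cannot be told apart, and the part that the share of osteoclasts and of mononuclear cells had in the results below was not tested.

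The levels of the 9 genes fell into separate ranges in cells without RANKL. Sirpa, Cd9 and Cd44 stood at 247 ± 36.5, 203 ± 0.961 and 163 ± 8.17 RPKM (SD, n = 2 each), above Cd47 at 63.3 ± 0.909 and Cd81 at 43.6 ± 3.45 RPKM (SD, n = 2 each). Far below them came Atp6v0d2 at 3.25 ± 0.448, Dcstamp at 2.61 ± 0.0658, Cdh1 at 0.422 ± 0.094 and Ocstamp at 0.164 ± 0.0643 RPKM (SD, n = 2 each), and no neighbours in that order overlapped between libraries. With RANKL, Atp6v0d2 reached the range of the abundant surface proteins: its libraries overlapped with those of Cd9 and Sirpa, which was not the case in -R or in R+LE. Among the tested genes, the mean level of Ocstamp rose from percentile 0.854 in -R to percentile 88.6 in +R and came to percentile 55.1 in R+LE. The filter of 0.5 RPKM was set on the mean of all 6 libraries. A gene as low as Ocstamp in -R was kept only because it was higher elsewhere, so its rise in percentile is in part built in. For Dcstamp the corresponding percentiles were 22.9, 90.2 and 65.6, and for Atp6v0d2 they were 27.2, 97.3 and 85.7.

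**Figure D1:**
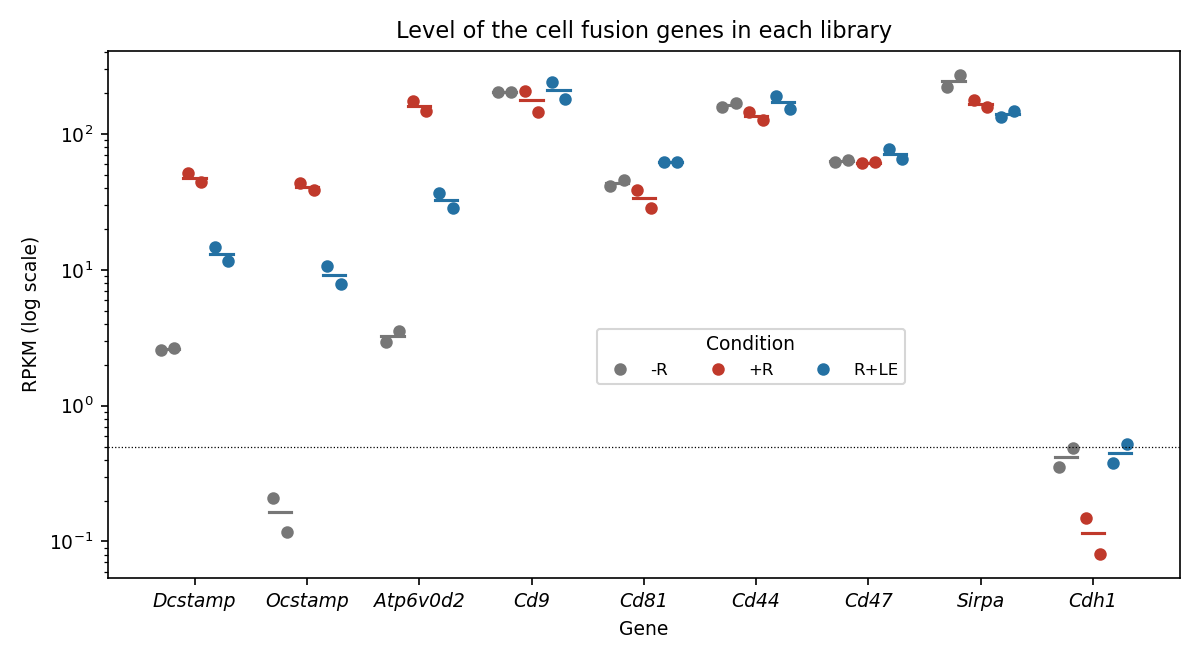
Level of each of the 9 cell fusion genes in RPKM (log scale) in the 2 libraries of -R, +R and R+LE, with points for libraries, short bars for group means and a dotted line at the filter of 0.5 RPKM. Dcstamp, Ocstamp and Atp6v0d2 are lowest in -R, highest in +R and between them in R+LE, while Cd9, Cd81, Cd44, Cd47 and Sirpa stay above 28.4 RPKM in every library.

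To ask which of these genes respond to RANKL, +R was compared with -R. Dcstamp, Ocstamp and Atp6v0d2 rose together, and none of the 5 other tested members rose. A gene was called at a limma adjusted p-value (Benjamini-Hochberg over all tested genes) under 0.05 with at least a 2-fold change on the log2(RPKM + 0.5) scale. By that rule 3 of the 8 tested members were called higher and 0 lower, while 6.58% of all tested genes were called higher and 8.92% lower. Ocstamp passed the filter only through the RANKL conditions, so its place in this count is in part built in. Cdh1, which was lower in +R than in -R, was left out by the filter and is not among the 8. At an unadjusted p under 0.05 in limma, 5 of the 8 members differed in either direction, next to 52.1% of all tested genes.

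Dcstamp encodes DC-STAMP, a multi-pass membrane protein without which osteoclast precursors stay mononuclear. The gene spans positions 39745930 to 39760938 of chromosome 15 (mm10, plus strand), and its counted transcript is 1685 nt long. It stood at 2.56 and 2.66 RPKM in -R, at 51.7 and 43.9 RPKM in +R, and at 14.6 and 11.6 RPKM in R+LE. The 3 conditions did not overlap, and the +R mean was 18.3 times that of -R. On the log2(RPKM + 0.5) scale the rise was 3.95 (SE 0.15, adjusted p = 2.08e-11 in limma).

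Ocstamp, which encodes the related protein OC-STAMP and lies on the minus strand of chromosome 2 from 165395450 to 165400394, was the member with the lowest starting level. Only 12 and 8 reads lay on its transcript of 1951 nt in -R (0.209 and 0.118 RPKM), against 2599 and 2315 reads in +R (43.4 and 38.6 RPKM) and 653 and 466 reads in R+LE (10.6 and 7.84 RPKM). So the transcript was close to the lower end of what the depth can show without RANKL, and both RANKL conditions lay far above it without overlap. Its log2 change with RANKL was 5.97 (SE 0.16, adjusted p = 8.88e-13 in limma), which understates the ratio of the mean RPKM values, 251, because the pseudocount of 0.5 exceeds the level in -R. When whole reads were recovered from RPKM and fitted with voom, the log2 change was 7.98 (SE 0.46). The exact 95% Poisson intervals of the -R libraries, which cover counting error only, reached from 0.0508 to 0.366 RPKM.

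Atp6v0d2 encodes the d2 subunit, the osteoclast-rich form of a subunit in the membrane sector of the proton pump that acidifies the resorption pit. It lies on the minus strand of chromosome 4 from 19876838 to 19922566. Its level was 2.93 and 3.57 RPKM in -R, 176 and 147 RPKM in +R, and 36.5 and 28.5 RPKM in R+LE. It was the most abundant of these 3 transcripts in every library, and the log2 rise with RANKL was 5.43 (SE 0.16, adjusted p = 1.93e-12 in limma).

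The other side of the comparison was a set of surface proteins that moved little. Sirpa was the single further member with an adjusted p under 0.05 between +R and -R, and it fell by 0.56 on the log2 scale. Of all tested genes, 21.5% were lower and 23.9% were higher at that threshold. In 7 of the 8 tested members the 2 libraries of +R did not overlap with those of -R, next to 75.2% of all tested genes, and a share near that background is no result about the members. The median log2 change was -0.13 over the 8 tested members and 0.05 over all tested genes.

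To see whether LE alters the RANKL response of these genes, R+LE was compared with +R. The same 3 genes fell, each by more than 2-fold, and Cd81 rose by less than 2-fold. By the rule above 3 of the 8 tested members were called lower and 0 higher, while 1.78% of all tested genes were called lower and 1.46% higher. At an adjusted p under 0.05 without a limit on fold, 3 members were lower and 1 was higher, against 6.86% and 5.19% of all tested genes. At an unadjusted p under 0.05, 4 of the 8 members differed in either direction, next to 23.3% of all tested genes. Libraries of R+LE and +R did not overlap in 7 of the 8 tested members and in 49% of all tested genes. The pattern of a call upwards with RANKL and downwards with LE was met by 3 of the 8 tested members and by 1.4% of all tested genes, and both comparisons share the +R libraries. The limit that the filter sets on the rise of Ocstamp applies here too. The median log2 change was -0.02 over the tested members and -0.05 over all tested genes.

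Atp6v0d2 fell by 2.30 on the log2 scale (SE 0.16, adjusted p = 3.84e-07 in limma), and the 2 R+LE libraries stood at 22.6% and 17.6% of the +R mean. Ocstamp fell by 2.11 (SE 0.16, adjusted p = 8.05e-07) and stood at 25.8% and 19.1% of the +R mean. Dcstamp fell by 1.83 (SE 0.15, adjusted p = 1.27e-06) and stood at 30.6% and 24.3% of the +R mean. In all 3 genes R+LE replicate 2 was the lower library, and it also had the smaller share of reads on genes. The 95% intervals of the 3 falls overlapped (-2.15 to -1.51 for Dcstamp, -2.45 to -1.76 for Ocstamp and -2.65 to -1.96 for Atp6v0d2), and whether the falls differ between the genes was not tested.

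Cells given RANKL and LE were also compared with cells that never received RANKL. Dcstamp, Ocstamp and Atp6v0d2 remained higher in R+LE than in -R, by log2 changes of 2.12 (SE 0.15, adjusted p = 3.53e-08 in limma), 3.86 (SE 0.16, adjusted p = 1.41e-10) and 3.13 (SE 0.16, adjusted p = 1.23e-09). In RPKM the R+LE means were 5.03, 56.4 and 10.0 times those of -R. So the transcripts were lowered by LE without coming back to the level of precursors that had not seen RANKL. In this comparison 3 of the 8 tested members were called higher and 0 lower, against 3.92% and 6.36% of all tested genes. Because Ocstamp passed the filter only through the RANKL conditions, its place in this count is in part built in. At an adjusted p under 0.05 alone, 4 members were higher and 1 was lower, against 15.3% and 19% of all tested genes. At an unadjusted p under 0.05 it was 5 of the 8 members, next to 43.5% of all tested genes, and libraries did not overlap in 6 of the 8 members and in 65.5% of all tested genes. In all 3 comparisons the calls on these genes held under each of 18 alternative settings, and their log2 change with LE ranged from -1.99 to -1.67 for Dcstamp, from -2.31 to -1.90 for Ocstamp and from -2.48 to -2.13 for Atp6v0d2.

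**Figure D2:**
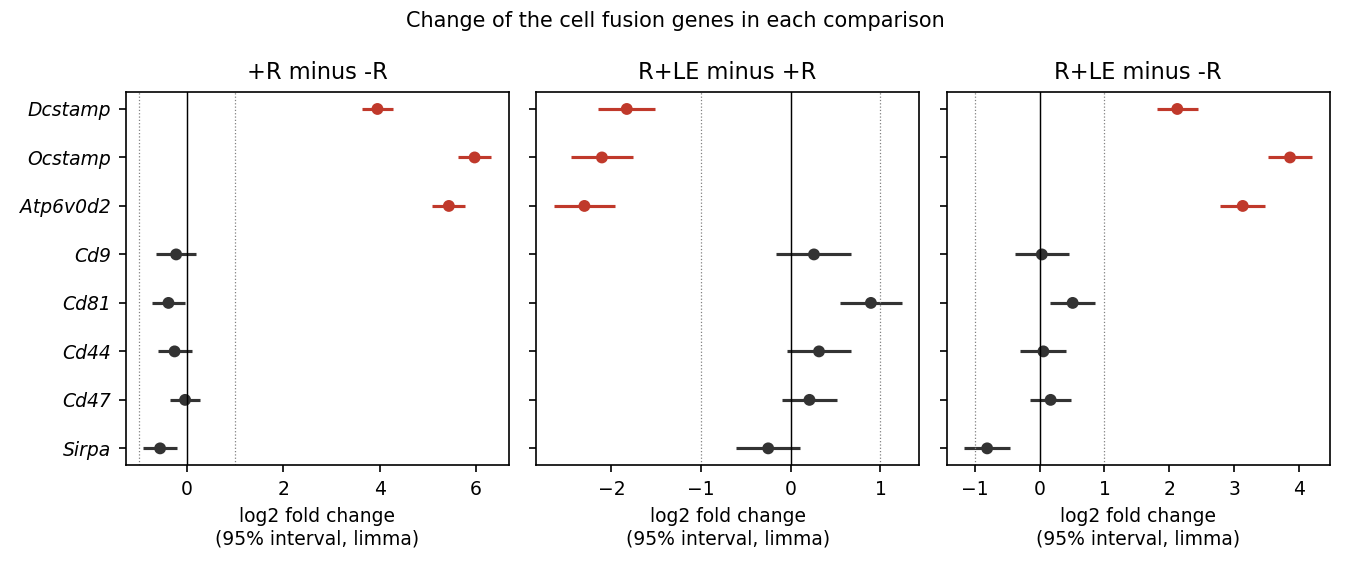
Log2 fold change of the 8 tested members in the 3 comparisons with 95% intervals from limma, where red marks members called at an adjusted p under 0.05 with at least a 2-fold change and dotted lines mark a 2-fold change. Dcstamp, Ocstamp and Atp6v0d2 lie at 3.95, 5.97 and 5.43 for +R minus -R and at -1.83, -2.11 and -2.30 for R+LE minus +R, and the intervals of the other 5 members lie between -1.16 and 1.24 in every panel.

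Ratios taken within a library do not depend on its depth. The d2 subunit has a widely expressed counterpart, d1, encoded by Atp6v0d1, and in -R the d2 transcript amounted to 0.042 and 0.0492 of the d1 transcript. In +R the ratio was 2.46 and 2.41, and in R+LE it was 0.55 and 0.541. The balance therefore passed from d1 to d2 with RANKL and back to more d1 than d2 with LE, while Atp6v0d1 itself lay between 52.7 and 72.5 RPKM in every library and had an adjusted p of 0.616 with RANKL and 0.633 with LE. The longest identical run shared by the d1 and d2 transcripts in GENCODE was 17 nt, and by Dcstamp and Ocstamp 13 nt. The level of Dcstamp was 12.3 and 22.5 times that of Ocstamp in -R, 1.19 and 1.14 times in +R, and 1.38 and 1.48 times in R+LE. The fusion proteins thus stood at near equal transcript levels in +R and less so in R+LE, with Dcstamp the higher of the pair in every library.

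The genes whose profile over the 6 libraries was most like that of these members were found by the root mean square distance between log2(RPKM + 0.5) profiles, each centred on its own mean. For Ocstamp the nearest of all tested genes was Slc9b2, which encodes a sodium/proton exchanger, at a distance of 0.0796, with 0.657 and 0.708 RPKM in -R, 74.6 and 69.8 RPKM in +R, and 19.4 and 14.6 RPKM in R+LE. Next came Itgb3 (the β3 integrin subunit) at 0.285 and Atp6v0d2 at 0.335. For Atp6v0d2 the nearest were Oscar, which encodes an osteoclast receptor, at 0.252, Jdp2, which encodes an AP-1 partner, at 0.283, and again Slc9b2 at 0.318. For Dcstamp they were the myosin gene Myo1d at 0.14, the adaptor gene Lat at 0.153 and the glutathione transferase gene Gstt1 at 0.164. These distances describe 6 libraries in 3 conditions that the genes share, and Slc9b2 was the sole gene among the nearest of more than 1 member. The pseudocount of 0.5 compresses low levels, so a small distance does not mean a like ratio of RPKM. In -R, Myo1d stood at 0.983 and 0.797 RPKM, Lat at 0 and 0.183 RPKM and Gstt1 at 0.132 and 0.334 RPKM, all below Dcstamp. Oscar had 0 RPKM in both -R libraries.

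**Figure D3:**
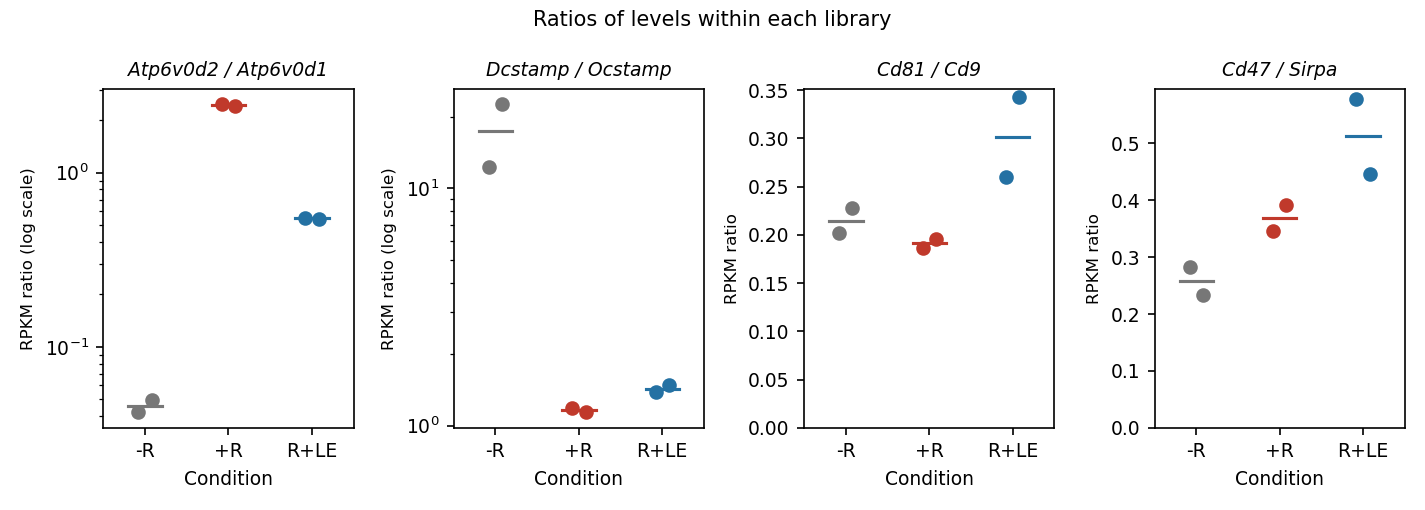
Ratio of RPKM levels within each library for 4 pairs of genes in -R, +R and R+LE, with points for libraries and short bars for group means. The axes for Atp6v0d2 over Atp6v0d1 and for Dcstamp over Ocstamp are logarithmic. The ratio of d2 to d1 is 2.46 and 2.41 in +R and at most 0.55 elsewhere, and the ratios of Cd81 to Cd9 and of Cd47 to Sirpa are highest in the 2 R+LE libraries.

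Of the tetraspanins, Cd81 rose with LE, and Cd9 did not pass the test in any comparison. Whether their responses differ was not tested. Cd81, on the plus strand of chromosome 7 from 143052750 to 143067930, encodes a membrane organiser that binds other surface proteins laterally. Its level was 41.2 and 46.1 RPKM in -R, 38.9 and 28.4 RPKM in +R, and 62.6 and 61.9 RPKM in R+LE. Both R+LE libraries lay above all other libraries. The log2 change with LE was 0.89 (SE 0.16, 95% interval 0.55 to 1.24, adjusted p = 0.00166 in limma), which is short of 2-fold. That side of the limit rested on +R replicate 1, without which the change was 1.12 (adjusted p = 2.9e-05) and was called, while without +R replicate 2 it was 0.67 (adjusted p = 0.0294). With no filter on low values, where 18427 genes were tested, the adjusted p was 0.0551, and over the 18 alternatives it ranged from 1.1e-07 to 0.0551. R+LE was also above -R by 0.51 (adjusted p = 0.0235), which is not 2-fold and no longer passed an adjusted p of 0.05 without -R replicate 1 (adjusted p = 0.208), without -R replicate 2 (adjusted p = 0.0844) and with no filter (adjusted p = 0.0931), over a range of 0.00298 to 0.208. Between +R and -R the change was -0.38 (adjusted p = 0.0649), and it passed under some alternatives, with adjusted p from 0.0192 without +R replicate 1 to 0.601 without +R replicate 2.

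Cd9, on the minus strand of chromosome 6 from 125460266 to 125494760, was more abundant than Cd81 in every library. It stood at 204 and 203 RPKM in -R, 208 and 145 RPKM in +R, and 240.3 and 180.2 RPKM in R+LE. The conditions overlapped, and replicate 2 was the lower library in each. Its log2 change with LE was 0.26, with a 95% interval from -0.16 to 0.68 (adjusted p = 0.502), so a rise of the size seen for Cd81 lay outside the interval while a smaller one did not. With RANKL the change was -0.22 (95% interval -0.64 to 0.19, adjusted p = 0.373), and without +R replicate 2 it was 0.03. Taken within a library, the level of Cd81 was 0.202 and 0.227 of that of Cd9 in -R. It was 0.187 and 0.196 of it with RANKL alone and 0.26 and 0.343 of it with RANKL and LE, with no overlap of R+LE and the other conditions. This ratio is given as a description and was not tested. Because the authors counted reads on either strand, reads of the antisense transcript R74862, which shares 104 bases of exon with Cd81, and of Gm26728, which shares 218 bases with Cd9, could not be told apart from those of the tetraspanins.

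Promoter entries of RefSeq (GRCm38.p6, the assembly behind mm10) were held for 4 of the 9 members, which were Cd9, Cd81, Cd44 and Cd47. Entries for Dcstamp, Ocstamp, Atp6v0d2, Sirpa and Cdh1 were not used here. The 250 bases before the start of each tetraspanin gene are shown because Cd81 is the one member outside the RANKL-induced genes that passed the test with LE and Cd9 is its closest relative among the members. Capitals mark the letters GGGCGG (the GC box) and GGAAA (the core of the NFAT motif) on either strand, which are short enough to occur in 32.7% and 55.6% of the 32851 promoter windows of this length.
Cd81, chr7:143052500-143052749, plus strand: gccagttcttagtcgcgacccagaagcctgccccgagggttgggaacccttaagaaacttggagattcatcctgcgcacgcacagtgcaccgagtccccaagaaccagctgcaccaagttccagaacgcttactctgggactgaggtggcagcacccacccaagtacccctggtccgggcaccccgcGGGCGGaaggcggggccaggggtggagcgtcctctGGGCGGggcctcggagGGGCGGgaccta
Cd9, chr6:125494761-125495010, minus strand: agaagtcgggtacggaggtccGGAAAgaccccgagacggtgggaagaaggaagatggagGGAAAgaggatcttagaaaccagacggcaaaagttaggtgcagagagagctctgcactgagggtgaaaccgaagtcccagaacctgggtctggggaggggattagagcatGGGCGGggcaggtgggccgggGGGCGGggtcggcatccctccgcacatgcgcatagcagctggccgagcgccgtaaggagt

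The Cd81 window held 3 GC boxes and no GGAAA, and the Cd9 window held 2 of each. The Cd44 window held 2 matches to GGAAA and no GC box, and each of the 2 overlapping Cd47 entries held 2 GC boxes and no GGAAA. The letters TGANTCA (AP-1), CACGTG (E-box) and TGACNNNGC (the antioxidant response element) were searched on both strands too, and none was in any of these 5 windows, while 6.75%, 6.02% and 10.2% of all windows held them. A match is a description of letters, and the lack of one says only that these letters are not in this window.

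CD44, the receptor for hyaluronan and osteopontin, was abundant throughout. The gene lies on the minus strand of chromosome 2 from 102811142 to 102901665. Its level was 157 and 169 RPKM in -R, 146 and 127 RPKM in +R, and 189 and 152 RPKM in R+LE. The +R libraries were lower than all others, but the change with RANKL (log2 -0.26, 95% interval -0.61 to 0.10, adjusted p = 0.223) and that with LE (log2 0.31, 95% interval -0.04 to 0.67, adjusted p = 0.281) did not pass. The intervals leave out a 2-fold change in either direction. With quantile normalization both passed (adjusted p = 0.0216 and 0.0048), and the change with LE also passed with libraries scaled to their reads on genes without Rn45s, the ribosomal RNA precursor (adjusted p = 0.0483), over ranges of 0.0216 to 0.66 and 0.0048 to 0.770 among the alternatives.

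CD47 and SIRPα form a ligand and receptor pair through which macrophages recognise one another as self. Cd47, on the plus strand of chromosome 16 from 49855654 to 49911683, was the most even of the members, at 62.6 and 63.9 RPKM in -R, 61.2 and 61.9 RPKM in +R, and 77.1 and 65.7 RPKM in R+LE. Its log2 change was -0.04 with RANKL (95% interval -0.35 to 0.27, adjusted p = 0.848) and 0.21 with LE (95% interval -0.10 to 0.52, adjusted p = 0.455). The sign with RANKL turned to 0.04 when libraries were scaled to their reads on genes without Rn45s. With quantile normalization the change with LE had an adjusted p of 0.0484, in a range of 0.0484 to 0.774.

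Sirpa, on the plus strand of chromosome 2 from 129595462 to 129632228, was 221 and 273 RPKM in -R, 176 and 158 RPKM in +R, and 133 and 147 RPKM in R+LE. Unlike the fusion proteins it was highest without RANKL, and the 3 conditions followed each other downwards without overlap. It fell by 0.56 with RANKL (SE 0.17, adjusted p = 0.0127 in limma), and it was lower in R+LE than in -R by a log2 change of -0.81 (SE 0.17, adjusted p = 0.00145), neither of which is 2-fold. Between R+LE and +R the change was -0.25 (95% interval -0.61 to 0.10, adjusted p = 0.42). The fall with RANKL rested on single libraries, with an adjusted p of 0.188 without -R replicate 2 and 0.126 without +R replicate 2 (range 0.00213 to 0.188), and the difference between R+LE and -R had an adjusted p of 0.0605 without -R replicate 2 (range 1.24e-05 to 0.0605). Of the 7 macrophage markers, 6 were lower with RANKL at an adjusted p under 0.05 in limma, next to 21.5% of all tested genes. The median log2 change of the 7 was -0.85, and the exception, Itgam, had a change of 0.34 (adjusted p = 0.0847). The part of these markers in the fall of Sirpa was not tested. Sirpa shares runs of at most 32 nt with its paralogs Sirpb1a, Sirpb1b and Sirpb1c, and how reads within such runs were assigned is not given in the sources used here. Within a library, Cd47 stood at 0.283 and 0.234 of the level of Sirpa in -R, at 0.347 and 0.392 in +R, and at 0.579 and 0.446 in R+LE, so the 3 conditions followed each other upwards without overlap. This ratio too was not tested.

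Cdh1 encodes E-cadherin, a homophilic adhesion protein best known from epithelia and also made by macrophages that are about to fuse. It lies on the plus strand of chromosome 8 from 106603350 to 106670247, and on its transcript of 4414 nt there were 46 and 75 reads in -R, 20 and 11 reads in +R, and 53 and 70 reads in R+LE. That corresponds to 0.355 and 0.488 RPKM, 0.148 and 0.081 RPKM, and 0.38 and 0.521 RPKM. Both +R libraries lay below all 4 others, and their exact 95% Poisson intervals, which cover counting error only, reached no higher than 0.228 RPKM, while the lowest bound in the other 4 was 0.26 RPKM. With a mean of 0.329 RPKM over all libraries the gene was under the filter and was not tested in the main comparison. In a voom fit of the recovered reads that kept the 15104 genes with at least 10 reads in all, an alternative chosen after seeing the data, Cdh1 had a log2 change of -1.90 with RANKL (SE 0.50, adjusted p = 0.000807) and 1.98 with LE (SE 0.49, adjusted p = 0.00182). On the log2(RPKM + 0.5) scale with no filter the changes were -0.58 (adjusted p = 0.023) and 0.63 (adjusted p = 0.0696). Its direction was thus opposite to that of Dcstamp, Ocstamp and Atp6v0d2 in both comparisons, at a level below theirs in every +R library. The epithelial markers Epcam, Krt8, Krt18, Krt19, Cldn4, Cldn7 and Esrp1 summed to at most 0.283 RPKM, in +R replicate 1, and Esrp1 had no read in any library.

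**Figure D4:**
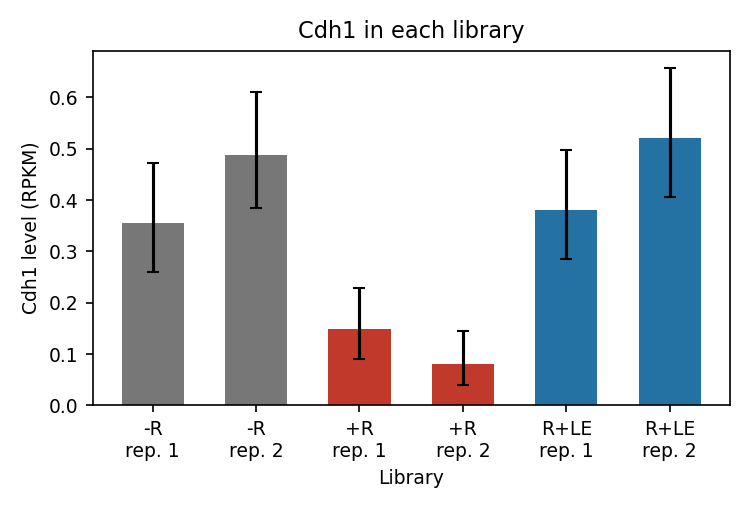
Level of Cdh1 in RPKM in each of the 6 libraries as bars, with exact 95% Poisson intervals from the recovered reads. The +R libraries, at 0.148 and 0.081 RPKM, lie below the 4 libraries of -R and R+LE, at 0.355 to 0.521 RPKM.

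Other genes linked to the fusion of macrophages or osteoclasts did not move as one. Of a list of 24 such genes, 21 were tested. With RANKL, 8 passed an adjusted p of 0.05 upwards and 9 downwards, 6 and 6 of them by at least 2-fold. Of all tested genes 23.9% and 21.5% passed, 6.58% and 8.92% with at least 2-fold. The median log2 change was -0.34 over the list and 0.05 over all tested genes. The largest rises were those of Itgb3 (log2 5.59, from 0.193 to 33.3 RPKM), the receptor ligand gene Cd200 (log2 4.44, from 0.261 to 16.1 RPKM) and Dock5, which encodes an activator of Rac (log2 2.83, from 6.05 to 45.6 RPKM). Itgb3 is also on the list of osteoclast markers, so its values are not a separate observation. The tetraspanin genes Cd82 and Tspan7 rose as well, by 2.39 and 2.31, Tspan7 from 0.077 to 2.38 RPKM. Itgb3, Cd200 and Tspan7 lay below 0.5 RPKM in -R and passed the filter only through the RANKL conditions. They could enter the test only as rises, so the counts upwards are in part built in. The largest falls were those of the scavenger receptor gene Cd36 (log2 -4.40, from 504 to 23.4 RPKM), the chemokine gene Ccl2 (log2 -4.28, from 316 to 15.7 RPKM) and Cd200r1, which encodes the receptor of CD200 (log2 -2.74, with 19.5 and 19.6 RPKM in -R and 2.51 and 2.49 RPKM in +R). So a ligand and its receptor, Cd200 and Cd200r1, moved in opposite directions.

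With LE added to RANKL, 6 genes of that list passed upwards and 7 downwards, but only 1 and 2 by at least 2-fold, and 8 did not pass. Of all tested genes 5.19% and 6.86% passed, 1.46% and 1.78% with at least 2-fold. The median log2 change was -0.11 over the list and -0.05 over all tested genes. Cd200 fell by 1.86 and Itgb3 by 1.47, and Cd36 rose by 2.34. Adam8, a metalloprotease gene, and Trem2, which encodes a receptor that signals through DAP12, rose by 0.68 and 0.80 after log2 changes of -1.87 and -1.94 with RANKL. Cd82 was induced by RANKL and had a log2 change of -0.11 with LE (95% interval from limma -0.45 to 0.22, adjusted p = 0.757). In R+LE it stood at 35.9 RPKM, next to 38.6 RPKM in +R and 6.95 RPKM in -R. Syna and Synb, the mouse syncytins, which are fusion proteins of the placenta, had at most 0.201 RPKM and no read, respectively. The muscle fusion genes Mymk and Mymx had no read in any library.

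**Figure D5:**
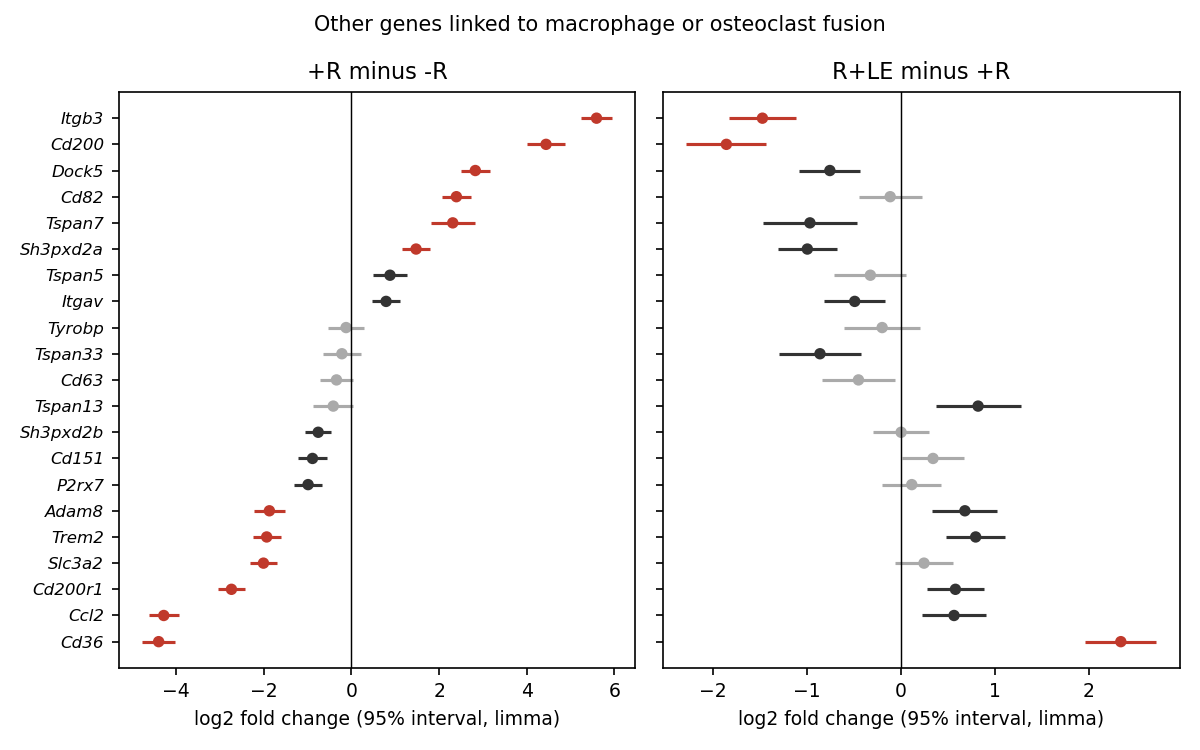
Log2 fold changes with 95% intervals from limma for the 21 tested genes of the list of other fusion-linked genes, for +R minus -R (left) and R+LE minus +R (right), in the order of the RANKL change. Red marks genes called with at least a 2-fold change, dark grey those with an adjusted p under 0.05 alone and light grey the rest. Itgb3 and Cd200 are at the upper end and Cd36 and Ccl2 at the lower end on the left, and Cd200, Itgb3 and Cd36 are the called genes on the right.

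Known binding partners of the members were also followed. All 13 were tested, with 3 higher and 5 lower at an adjusted p under 0.05 with RANKL, and 1 higher and 1 lower with LE, neither by 2-fold. At that threshold 23.9% of all tested genes were higher and 21.5% lower with RANKL, and 5.19% higher and 6.86% lower with LE. Ptpn6, which encodes the phosphatase SHP-1 that SIRPα recruits, was higher in +R (log2 0.89, adjusted p = 0.000374), while Ptpn11, which encodes the related SHP-2, had a change of 0.05 (adjusted p = 0.824). Spp1, the gene of the CD44 ligand osteopontin, fell by 1.81 with RANKL (from 718 to 211 RPKM), and Thbs1, the gene of the CD47 ligand thrombospondin, fell by 1.84 and rose by 0.75 with LE (adjusted p = 0.0084). Ezr and Msn, whose products tie CD44 to actin, fell by 1.13 and 0.68 with RANKL, and Rdx of the same family rose by 0.43. Of the catenin genes that act with E-cadherin, Ctnna1, Ctnnb1 and Ctnnd1 passed in neither comparison, and Jup was lower with LE (log2 -0.77, adjusted p = 0.0429). The level of Jup was low and uneven, at 1.91 and 1.39 RPKM in +R and 0.495 and 1.07 RPKM in R+LE. Of the partners of the tetraspanins, Igsf8 fell by 0.65 and Ptgfrn rose by 1.11 with RANKL. Ptgfrn was low, at 0.271 and 0.393 RPKM in -R and 1.41 and 1.18 RPKM in +R. It passed the filter only through the RANKL conditions, so its rise is in part built in.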

How the data were processed

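RNA from 6 libraries, 2 for each of -R, +R and R+LE, was analysed, with groups taken from the sample titles. Per the file headers, the authors counted reads on exons of mm10 genes with HOMER on either strand, kept 1 transcript per gene and deposited RPKM values (column titles say FPKM). The study's text names TopHat for alignment, while the submitters' processing notes list HISAT2, HOMER and DESeq2. Versions are not given in the sources used here.

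Values were tested as log2(RPKM + 0.5) where a gene averaged 0.5 RPKM or more, using limma 3.58.1 in R 4.3.3 on all 6 libraries, with a variance trend and Benjamini-Hochberg adjustment, and called at an adjusted p under 0.05 with a 2-fold change. The pseudocount makes the fold change of low genes too small. Whole reads were recovered from RPKM and length (all checked values within 0.1 reads of a whole number), which gave the depth. Scripts ran in Python 3.11.15 with pandas 2.3.3 and matplotlib 3.10.9 and were tested on simulated data.

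The members and gene lists were chosen with earlier results of these data known. Genes named are the members, genes of the lists where these are described, and the 3 genes nearest in profile to each called member. Alternatives were other pseudocounts, filters, scalings, limma settings, a replicate block, voom and leaving out each library. Values of the study's other assays were not used.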

Additional observations from a re-analysis of the deposited data

How the results depend on the processing

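The number of members called was between 3 and 4 in +R against -R and in R+LE against +R and was 3 in R+LE against -R under all 18 alternatives, and the count was 4 in the voom fit of genes with at least 10 reads, added after seeing the data, which also called Cdh1, and, with LE, without +R replicate 1, where Cd81 was called (log2 change 1.12, adjusted p = 2.9e-05). The voom fit called 2894, 660 and 2032 of 15104 genes in these comparisons, against 1797, 375 and 1192 of 11595. The changes of Dcstamp, Ocstamp and Atp6v0d2 passed under each of them. Scaling to reads on genes without Rn45s turned the change of Cd47 with RANKL to 0.038 and put the median of all tested genes at 0.11 in that comparison, against 0.05. With 1 library left out, the change of Cd9 ranged from -0.48 to 0.035 with RANKL, from -0.0014 to 0.52 with LE and from -0.17 to 0.24 for R+LE against -R, and that of Cd44 for R+LE against -R ranged from -0.10 to 0.21. None of these values passed the test, and the cause was not tested. Where a condition was left with 1 library, that library was assumed to vary like the others.

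Whether the replicate numbers mark pairs is not given and could not be decided here. Deviations of same-numbered libraries correlated at -0.046 between -R and +R, 0.107 between -R and R+LE and 0.249 between +R and R+LE. With 2 libraries per condition this gives only 1 correlation for each pair of conditions, which cannot settle the question. With the replicate number as a block, 3 members were called in each comparison. Among the members the block moved 1 result across an adjusted p of 0.05, that of Cd81 with RANKL (log2 change -0.38, adjusted p = 0.0348 in limma). Depth limits Cdh1 and Ocstamp in -R, with 8 to 75 reads per library.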
